A study of Rattus norvegicus with 36 samples.

Results

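Rat lung slices that had received TGFb together with Sora were compared with slices that had received TGFb together with Pirf. The drug groups were taken from the sample titles and hold 6 libraries each, 12 of the 36 libraries of the series. Precision-cut lung slices are thin slices of living lung tissue that are cultured, and each library holds total RNA of 1 sample of such slices. The other libraries are 6 each of untreated slices at the labelled times 0 and 72, of slices with TGFb alone at 72, and of slices with TGFb and Nint at 72. Both drug groups carry the label 72, with no unit given, and both contain TGFb, so that they differ in the drug alone as far as the labels go. No dose, strain, sex or age is given in the sources used here. Sora, Pirf and Nint are read as sorafenib, pirfenidone and nintedanib from knowledge of the study. Nothing states whether replicates came from separate animals. The p-values weigh each difference against the spread between these samples only. That spread may be technical, so the p-values may not carry over to other animals.

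TGFb is a secreted growth factor that acts through receptor kinases and Smad transcription factors. In lung it drives fibroblasts to become contractile cells that lay down collagen and other matrix. Pirfenidone is an oral drug used against pulmonary fibrosis, whose direct molecular target is not settled. Sorafenib is an oral cancer drug that blocks several kinases, among them RAF kinases and the receptors for VEGF and PDGF. The comparison thus sets a drug of unsettled target beside a kinase inhibitor on the same TGFb background. The series was made to describe how this slice model behaves when anti-fibrotic drugs are tested in it.

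The deposited tables list genes by Ensembl ID without names, and 0 IDs could be paired with a symbol from the reference gene table. Pathways, cell types and the labelled tissue could therefore not be checked against marker genes, no sequence could be tied to a gene, and only 4 genes are given by ID. Genes are otherwise described in groups, formed by how they behaved in libraries of other conditions. In whole slices, fewer cells of a type and less RNA per cell cannot be told apart.

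Total counts lay between 23660962 and 32933012 in the Sora libraries and between 20347040 and 32299405 in the Pirf libraries. Of 5 library measures, none differed between the drugs after correction (exact permutation tests, two-sided, 6 libraries against 6, with p adjusted over the 5 measures). Genes absent from the authors' table of protein-coding genes took up 11.8% ± 1.26 of the counts with Sora and 13.6% ± 0.728 with Pirf (SD, n = 6, exact p = 0.0173, adjusted p = 0.0866). The scaling factor was 1.03 ± 0.0435 with Sora and 1.07 ± 0.00869 with Pirf (exact p = 0.0433, adjusted p = 0.108). With the log2 scaling factor as a covariate, 6759 genes were called between the drugs, against 6592 without it as described below, and 5807 were called in the same direction in both fits. The factor was lower on average with Sora, so this fit cannot fully separate it from the drug. The part of the 5 measures in the gene results was not tested.

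On the first principal component of the 12 libraries, which held 39.1% of the variance, the drugs were separate. The 6 Pirf libraries scored from -40.3 to -26.9 and the 6 Sora libraries from 5.55 to 56. The Pirf libraries lay close together, whereas Sora replicate 2 at 5.55 and replicate 1 at 22.5 lay nearest to Pirf and replicate 5 at 56 lay farthest. The second component held 14.4% and set Sora libraries apart from each other, with replicate 3 at 48.3 and replicate 5 at -41. The Sora group was also more variable gene by gene. The median SD of log2 CPM was 0.197 over Sora libraries and 0.133 over Pirf libraries, and the SD was greater with Sora for 11828 of 15644 genes (75.6%). The corresponding medians were 0.193 with TGFb alone, 0.143 with Nint and 0.179 in untreated slices at 72, so that Pirf had the lowest median spread of the 6 groups.

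**Figure D1:**
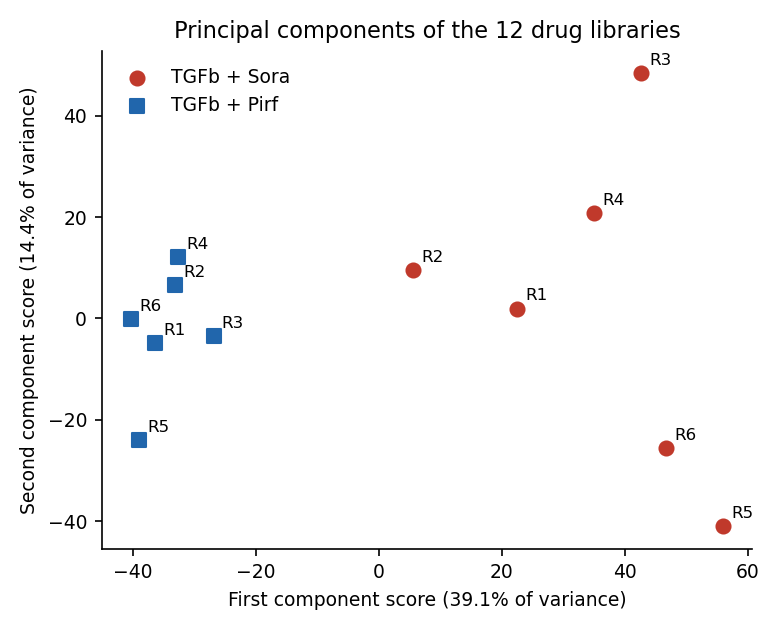
Scores of the 12 drug libraries on the first and second principal components of log2 CPM, 1 point per library, labelled by replicate. The 6 Pirf libraries lie between -40.3 and -26.9 on the first axis and all 6 Sora libraries lie above them, spread from 5.55 to 56.

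Sora and Pirf libraries differed in many genes, most of them by small amounts. Of 15644 genes tested, 6592 (42.1%) passed an adjusted p of 0.05 in edgeR's quasi-likelihood test with Benjamini-Hochberg adjustment, here named called. Of these, 3414 (21.8%) were higher with Sora and 3178 (20.3%) were lower with Sora. The median called difference was 1.35-fold. Differences under 1.2-fold made up 749 of the genes higher and 835 of the genes lower with Sora. At least 2-fold differences were found in 1075 genes (6.87%), 692 (4.42%) higher and 383 (2.45%) lower with Sora. At 8-fold or more, 42 genes were higher and 6 were lower with Sora, so that the largest differences lay mostly on the side of more RNA with Sora. Against a fold of 1.2 rather than no change, 2520 genes were called, 1563 higher and 957 lower.

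The libraries of the groups did not overlap for 3665 genes (23.4% of those tested). All 6 Sora libraries exceeded all 6 Pirf libraries for 1991 genes (12.7%), and the reverse held for 1674 genes (10.7%). Among called genes 3576 did not overlap, 54.2% of them. No called gene had 0 counts in all libraries of either drug. The calls covered all ranges of expression. When genes were divided by level into parts of 5214, 5215 and 5215 genes, 1708 of the lowest, 2392 of the middle and 2492 of the highest were called. The at least 2-fold differences were mostly of low genes, with 414 higher and 321 lower in the lowest part and 88 higher and 21 lower in the highest. Of the 100 most abundant genes, 41 (41%) were higher and 9 (9%) were lower with Sora. The shares were 27.1% and 20.7% in the highest part and 21.8% and 20.3% over all genes tested. The 100 genes had a median log2 fold change of 0.14 and a range from -0.96 to 1.63. Among the 1164 tested genes that the coding table lacks, 249 (21.4%) were called, against 6343 of 14480 (43.8%) in it.

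**Figure D2:**
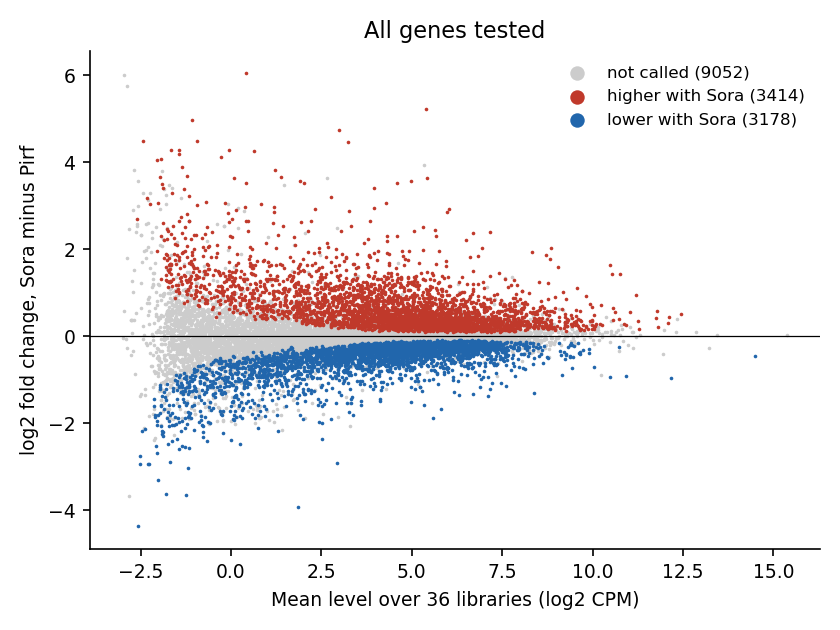
The log2 fold change of Sora against Pirf is plotted against the mean level over 36 libraries in log2 CPM, 1 point per gene for 15644 genes, with called genes in colour. Called genes lie on both sides of 0 at all levels, and the widest differences are among genes of low level and above 0.

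The 4 genes with the widest separation were then examined library by library. They are the pair farthest apart in each direction, by log2 fold change, out of the called genes without overlap between libraries and with a mean of at least 50 normalized counts in the higher group. Normalized counts are scaled to the mean library size and not per length, so levels are compared between groups and not between genes. ENSRNOG00000032626 held 1229, 1482, 3748, 2776, 2832 and 2986 normalized counts in Sora replicates 1 to 6. It held 78.8, 69.8, 53, 43, 108.3 and 42.4 in Pirf replicates 1 to 6. The lowest Sora library thus exceeded the highest Pirf library by a wide margin, with Sora replicates 1 and 2 below the other Sora libraries. The log2 fold change was 5.22 (SE 0.42, adjusted p = 3.35e-11), a 37.2-fold difference. Its level with TGFb alone ranged from 1014 to 3658 with a median of 1825, and with Nint from 1077 to 4535 with a median of 2577. Sora libraries lay within the range with Nint and, apart from replicate 3, within that with TGFb alone. Against TGFb alone the Sora log2 fold change was 0.24 (SE 0.34, adjusted p = 0.668), in a comparison in which 15.4% of all genes were called. For Pirf against TGFb alone it was -4.98 (SE 0.42, adjusted p = 4.99e-11), where 51.5% of all genes were called. Untreated slices at time 0 held 254 to 647 counts, so all 6 Pirf libraries lay below every library at time 0 as well.

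In ENSRNOG00000032832 the Pirf libraries were again far below those of the other 72 groups. It held 177.7, 222.8, 525.1, 477.1, 661.5 and 329.6 normalized counts in Sora replicates 1 to 6 and 9.53, 13.8, 16.6, 7.71, 26.9 and 11.8 in Pirf replicates 1 to 6. Sora replicates 1 and 2 were again the lowest of their group and still far above every Pirf library. The log2 fold change was 4.74 (SE 0.42, adjusted p = 2.46e-10), or 26.7-fold. Untreated slices held 21.7 to 90.9 counts at time 0 and 467.5 to 1104 at 72. Sora libraries thus overlapped untreated slices at 72, and 5 of 6 Pirf libraries lay below the lowest library at time 0. Against TGFb alone the log2 fold change was -0.34 for Sora (SE 0.32, adjusted p = 0.503) and -5.08 for Pirf (SE 0.42, adjusted p = 3.88e-11).

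ENSRNOG00000008915 was the gene most reduced with Sora relative to Pirf under the rule. Its normalized counts were 7.11, 4.78, 4.79, 8.88, 1.58 and 0 in Sora replicates 1 to 6 and 94.4, 56, 46.8, 52.9, 46.9 and 53.3 in Pirf replicates 1 to 6. Pirf replicate 1 stood above the other Pirf libraries, and the Sora libraries had few reads. The log2 fold change was -3.64 (SE 0.40, adjusted p = 1.46e-08), a 12.5-fold difference. Other groups were low as well. The highest library among those with TGFb alone, Nint or no treatment held 17.8 counts, at time 0, so every Pirf library exceeded every library of the other groups. TGFb alone was higher than untreated slices at 72 (log2 fold change 1.82, SE 0.51, adjusted p = 0.00699, where 26.4% of all genes were called), and Pirf stood a further 3.01 above TGFb alone on the log2 scale (SE 0.39, adjusted p = 1.51e-07). For Sora against TGFb alone the log2 fold change was -0.63 (SE 0.43, adjusted p = 0.336).

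ENSRNOG00000030387 was the other gene with lower levels under Sora. Sora replicates 1 to 6 held 202.5, 366.3, 101.2, 75.9, 147 and 197.6 normalized counts and Pirf replicates 1 to 6 held 1366, 836.1, 1155, 774.6, 2348 and 1709. The log2 fold change was -2.92 (SE 0.40, adjusted p = 6.47e-07), or 7.55-fold. Sora replicate 2 was the highest of its group and lay below every Pirf library. Libraries with TGFb alone held 84.8 to 299.8 and untreated slices at 72 held 83.3 to 296.4, ranges that held all Sora libraries apart from replicate 2 above and replicate 4 below. The difference of TGFb alone from untreated slices at 72 was -0.28 on the log2 scale (SE 0.39, adjusted p = 0.657). In all 4 genes the difference of Sora from TGFb alone missed the threshold and that of Pirf passed it. The comparisons with TGFb alone share the same 6 control libraries, and these genes were chosen for their difference between the drugs.

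**Figure D3:**
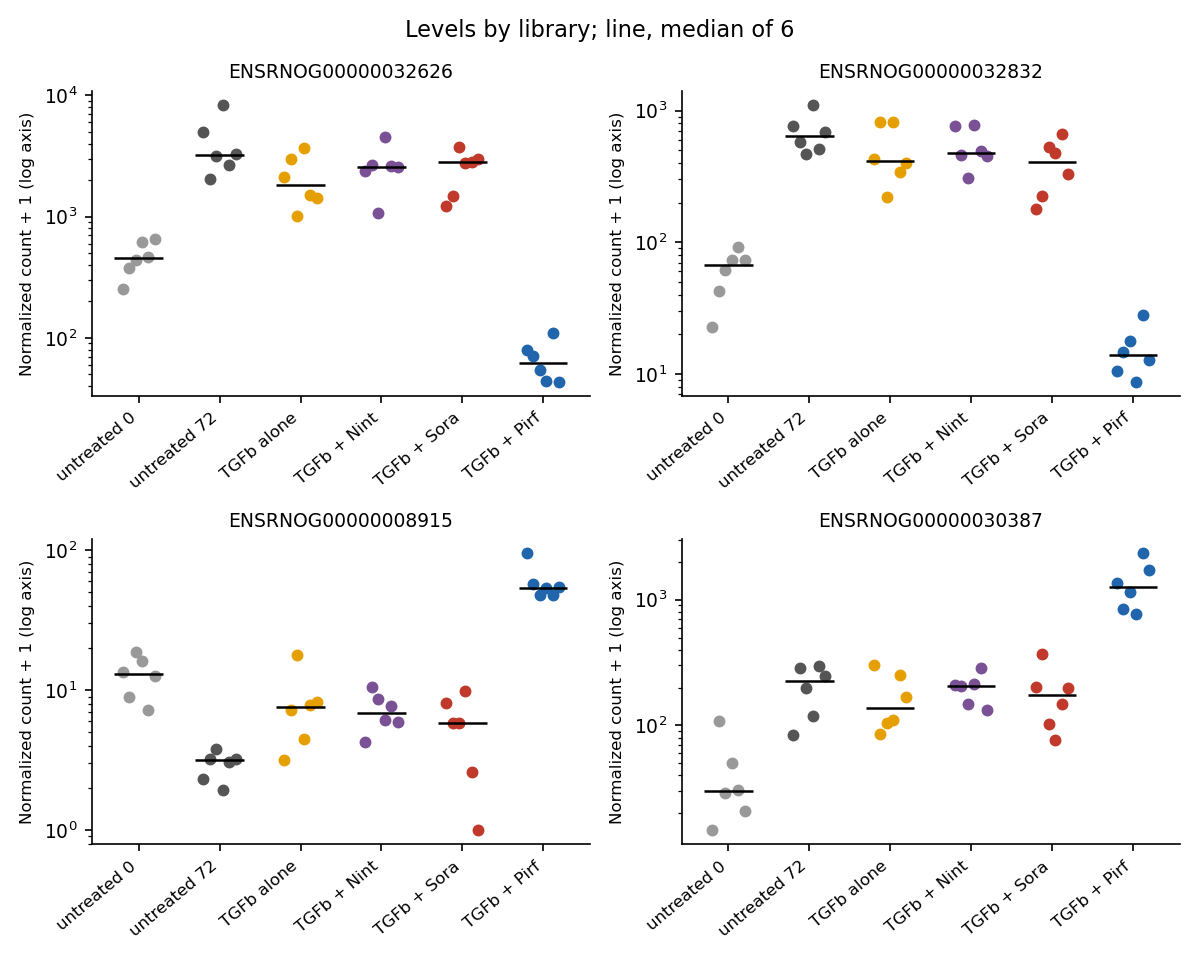
Normalized counts plus 1 on a log axis for the 4 genes in each library of the 6 groups, with a line at the median of 6. In the upper panels Pirf lies far below all other 72 groups, and in the lower panels Pirf lies above every other group.

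Where the remaining groups lay relative to both drugs was counted for the 1075 genes with a called difference of at least 2-fold. The genes were chosen from the drug libraries alone, apart from the spread estimate that all 36 libraries share. The TGFb-alone mean lay closer to the Sora mean than to the Pirf mean for 940 of the 1075 genes (87.4%), against 70.3% of all genes tested. The mean of untreated slices at 72 lay closer to Sora for 878 (81.7%), against 66.4% of all genes tested. For Nint the number was 977 (90.9%), against 74.5%. Time 0 was different, with 501 genes (46.6%) closer to Sora, the same share as over all genes tested. The share at time 0 differed by direction. It was 288 of the 692 genes higher with Sora (41.6%) and 213 of the 383 genes lower with Sora (55.6%). For genes of at least 2-fold difference, then, Pirf was the group that stood away from the other 72 groups in most cases. Among the 692 genes higher with Sora, the TGFb-alone mean exceeded the Sora mean for 324 (46.8%) and lay between the drug means for 52%. Among the 383 genes lower with Sora, the TGFb-alone mean lay below the Sora mean for 234 (61.1%). Over all genes tested, the TGFb-alone mean lay beyond the Sora mean, on the side away from Pirf, for 50.3%. These are positions of means and carry no test.

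Genes that TGFb raised at least 2-fold differed between the drugs in both directions, with no lean to either in the number called. They were chosen from TGFb-alone and untreated libraries at 72, none of which is a drug library. Of 475 genes raised at least 2-fold and called (3.04% of all genes), 103 (21.7%) were higher and 106 (22.3%) were lower with Sora than with Pirf. These shares are near the 21.8% and 20.3% of all genes tested, and the median log2 fold change was -0.04, against -0.01 over all genes. The middle 50% of these genes lay from -0.50 to 0.55, wider than the -0.24 to 0.25 of all genes. At least 2-fold differences were found in 73 of the 475 genes higher and 39 lower with Sora. Of all 15644 genes tested, 692 (4.42%) and 383 (2.45%) differed that much. Large differences thus took up a greater share of the TGFb-raised genes in both directions. Genes higher with Sora were the more numerous both here and over all genes tested. The mean log2 level of the 475 genes above untreated slices at 72 was 1.16, 1.15, 0.99, 1.09, 0.91 and 0.94 in Sora replicates 1 to 6 and 1.12, 1.04, 0.80, 0.90, 1.01 and 1.15 in Pirf replicates 1 to 6. The drug groups overlapped, at 1.04 ± 0.107 and 1.002 ± 0.131 (SD, n = 6). Group means thus lay close while 209 of the 475 genes (44%) differed between the drugs, in both directions. The share called over all genes tested was nearly the same, at 42.1%. Libraries with TGFb alone ranged from 1.39 to 1.81, but their values were used to choose the genes. Of all 2187 genes called higher with TGFb at any fold, 602 (27.5%) were higher and 499 (22.8%) were lower with Sora.

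Genes that TGFb lowered at least 2-fold were more often higher than lower with Sora, but the libraries overlapped. Of 566 genes lowered at least 2-fold and called (3.62% of all genes), 149 (26.3%) were higher with Sora and 75 (13.3%) were lower, beside 21.8% and 20.3% of all genes tested. Their median log2 fold change was 0.15, beside -0.01 over all genes. It was 0.096 without Sora replicate 1, 0.097 without scaling factors and 0.089 with limma-voom. In the 6 Sora libraries their mean log2 level relative to untreated slices at 72 was -0.74, -0.80, -1.18, -1.25, -0.94 and -0.74. In the 6 Pirf libraries it was -1.28, -1.14, -0.91, -1.10, -0.97 and -1.14. Sora replicates 3, 4 and 5 lay among the Pirf libraries, so that the groups overlapped, at -0.94 ± 0.227 and -1.09 ± 0.131 (SD, n = 6). The lean of these 566 genes is tied to the 2-fold bound and to the requirement of a TGFb call. All 1943 genes called lower with TGFb, at any fold, held 443 (22.8%) higher and 425 (21.9%) lower with Sora. A further 259 genes had a TGFb log2 fold change of -1 or below but were not called for TGFb, and of these 3 were higher and 70 were lower with Sora, a group picked out after its values were seen. Those 70 became 38 without Pirf replicate 5 and 148 without Sora replicate 2. Without the TGFb call as a condition, the 721 genes with a TGFb log2 fold change from -2 to -1 held 132 higher and 132 lower. Across all 15644 genes the TGFb change and the difference between the drugs were almost unrelated, with a Pearson r of 0.096 and a Spearman rho of 0.084. Genes are not independent replicates, and these comparisons share no library.

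Genes that culture alone had raised were mostly higher with Sora than with Pirf. These were chosen from untreated slices at 72 against untreated slices at 0, again without any drug library. Of 2276 genes raised at least 2-fold in culture (14.5% of all genes), 1005 (44.2%) were higher with Sora and 154 (6.77%) were lower, against 21.8% and 20.3% of all genes. Their median log2 fold change was 0.29. Of the 244 genes raised at least 8-fold, 149 (61.1%) were higher and 8 (3.28%) were lower with Sora, with a median log2 fold change of 1.05. The share grew with the size of the culture change. It was 22.6% among genes whose culture log2 fold change lay from 0 to 1, 37.7% from 1 to 2, 52.3% from 2 to 3 and 58.9% at 3 or above, whereas genes lower with Sora went from 17.9% to 3.1% over the same steps. ENSRNOG00000032626 and ENSRNOG00000032832 belong to the genes that culture raised at least 8-fold, with log2 fold changes of 3.13 (SE 0.37, adjusted p = 3.7e-09) and 3.52 (SE 0.37, adjusted p = 3.56e-10), in a comparison that called 73.2% of all genes. Both had been chosen for their drug difference, so they are examples of the group and not support for it. ENSRNOG00000030387, which was higher with Pirf, had also risen in culture by 2.35 on the log2 scale (SE 0.45, adjusted p = 2.03e-05) and ran against the lean of the group.

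The drugs were separate in every library for the culture-raised genes. Relative to untreated slices at 72, the mean log2 level of the 2276 genes was 0.02, -0.03, -0.10, -0.03, -0.01 and -0.003 in Sora replicates 1 to 6. It was -0.36, -0.38, -0.48, -0.44, -0.34 and -0.32 in Pirf replicates 1 to 6. Every Sora library lay above every Pirf library, with means of -0.03 ± 0.0421 and -0.39 ± 0.0616 (SD, n = 6). Untreated libraries at 72 ranged from -0.06 to 0.07, a range that held all Sora libraries apart from replicate 3, which lay below it. Libraries with TGFb alone ranged from 0.001 to 0.12, and all Sora libraries apart from replicate 1 lay below that range. Libraries at time 0 ranged from -1.90 to -1.34. The levels of both untreated groups were used to choose these genes, so their distance from each other is no result. The lean was present in each class of TGFb response. Among culture-raised genes not called for TGFb, 754 of 1648 (45.8%) were higher and 88 (5.34%) were lower with Sora. TGFb raised 14% and lowered 12.4% of all genes tested at any fold. Among culture-raised genes that TGFb raised, 158 of 402 (39.3%) were higher and 48 (11.9%) were lower. Among those TGFb lowered, 93 of 226 (41.2%) were higher and 18 (7.96%) were lower. Of 389 TGFb-lowered genes that culture had lowered at least 2-fold, 67 (17.2%) were higher and 95 (24.4%) were lower. Culture-lowered genes not called for TGFb had near shares, 15.1% and 23.4%. Of 1328 TGFb-lowered genes in neither culture group, 283 (21.3%) were higher and 312 (23.5%) were lower. Genes in neither culture group and not called for TGFb held 16.6% higher and 21.7% lower. The shares over all genes tested were 21.8% and 20.3%.

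Genes that culture lowered were more often lower than higher with Sora. Of 2019 genes that culture lowered at least 2-fold (12.9% of all genes), 332 (16.4%) were higher and 488 (24.2%) were lower with Sora, with a median log2 fold change of -0.10. The shares over all genes tested were 21.8% and 20.3%. The 11349 genes with no culture call or a change under 2-fold had nearly the same lean, with 2077 (18.3%) higher and 2536 (22.3%) lower. Of 220 genes lowered at least 8-fold, 29 (13.2%) were higher and 58 (26.4%) were lower. The share lower with Sora did not grow steadily with the size of the loss. It was 27.3% for culture log2 fold changes from -1 to 0, 23.1% from -2 to -1, 24.4% from -3 to -2 and 26.2% below -3. Beyond a loss of 2-fold it thus rose in small steps, yet stayed under the share from -1 to 0. In mean log2 level relative to untreated slices at 72, Pirf libraries ranged from 0.097 to 0.14 and Sora libraries from -0.04 to 0.05, and the groups did not overlap. ENSRNOG00000008915 is one of these genes, lowered in culture at -2.56 on the log2 scale (SE 0.49, adjusted p = 2.42e-05), and its Pirf libraries stood above the highest library at time 0. Across all genes tested, the culture change and the Sora to Pirf difference had a Pearson r of 0.29 and a Spearman rho of 0.276, given as a description across genes.

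**Figure D4:**
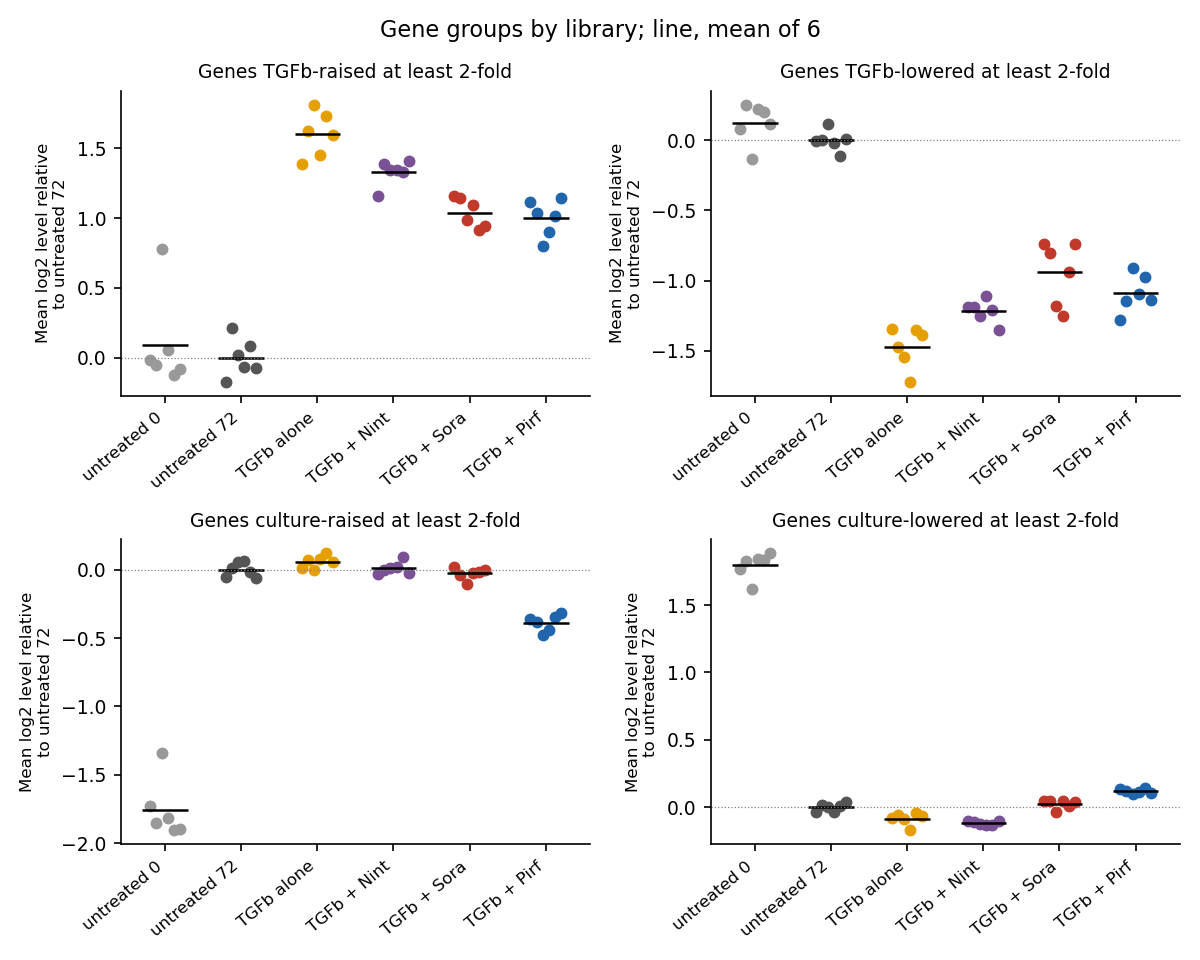
Mean log2 level of 4 gene groups in every library, relative to the mean of untreated slices at 72, with a line at the mean of 6 libraries. Sora and Pirf overlap for both TGFb groups, whereas for culture-raised genes all Pirf libraries lie at -0.32 or below and all Sora libraries at -0.10 or above.

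**Figure D5:**
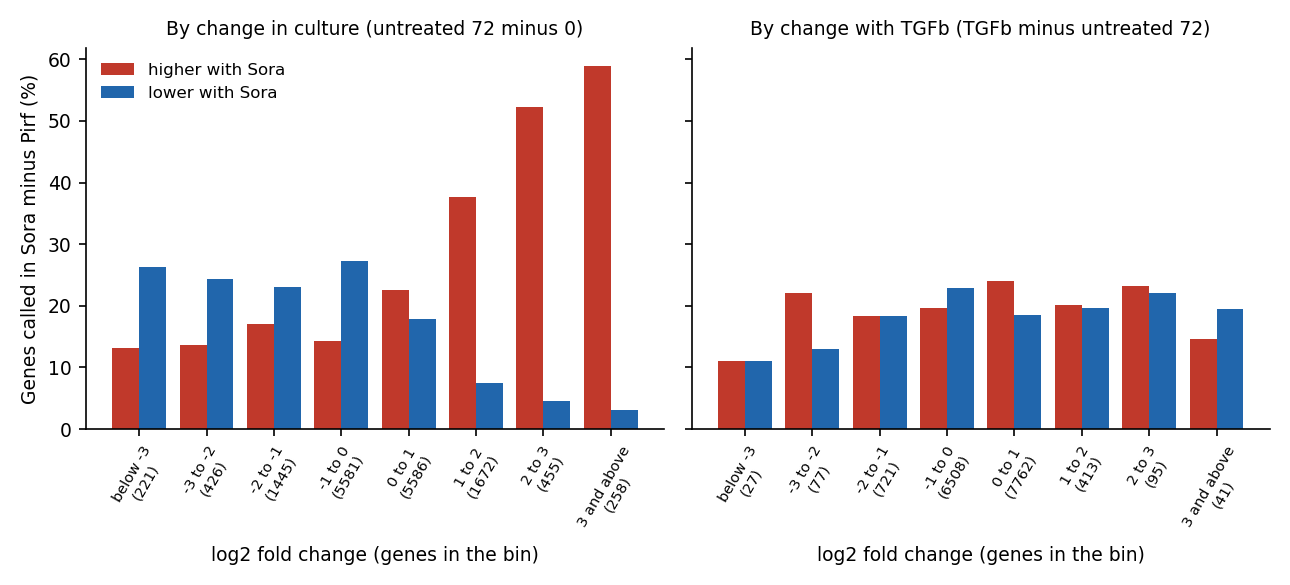
Percentage of genes called higher or lower with Sora than with Pirf, by the log2 fold change of the gene in culture (left) or with TGFb (right), with the number of genes in each bin in brackets. On the left the share higher with Sora goes from 22.6% in the bin from 0 to 1 to 58.9% at 3 or above, and on the right the bars show no such slope.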

How the data were processed

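RNA of 36 rat lung slice samples was sequenced after removal of ribosomal RNA, per the labels' protocols. RSEM, edgeR and the build Rnor_6.0 are named per the submitters' processing notes; the sources used here do not name the aligner, the annotation release or the strand setting of the counting. The deposited count table holds the authors' expected counts for 32883 Ensembl genes, unscaled. The deposited log2 CPM table holds 14984 genes that the authors describe as expressed and protein coding (the coding table); edgeR's log2 CPM, made with TMM factors and 0.25 as prior count, equalled it up to rounding. RSEM can divide reads among near-identical genes, whose counts are uncertain.

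Counts were rounded to whole numbers. R 4.3.3 and edgeR 4.0.16 were used. After filterByExpr, 15644 genes entered 1 quasi-likelihood fit of all 36 libraries with TMM scaling and a mean per group. Every adjusted p for a gene is from glmQLFTest with Benjamini-Hochberg adjustment over these genes. SE is the log2 fold change over the square root of F. Components and group levels used log2 CPM (prior count 2). The fit was tested on simulated data. Gene groups carry no test. Alternatives included DESeq2 1.42.0 and limma 3.58.1. The named genes are the 2 farthest apart in each direction, out of called genes without overlap and with a mean of at least 50. The groups and rules were chosen with earlier results of these data known; 46 gene lists and 30 genes fixed by name could not be used without names. The 259-gene group, the 8-fold groups, the division by level, the 100 most abundant genes, the bins, the culture by TGFb classes and the positions of other groups were added after the data were seen, as were most alternatives for gene groups. Replicate libraries were not copies of each other, since the chi-square per degree of freedom was at least 13.1 over 30 pairs.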

Additional observations from a re-analysis of the deposited data

Results flagged for a closer look

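In 48 sets of 6 libraries, the gap of the highest and of the lowest library to its neighbour was set against Dixon's critical value for 6 values, which chance exceeds in about 1 of 20 sets. This held in 2 of the 48, both for ENSRNOG00000008915. Pirf replicate 1 held 94.4 normalized counts of it, where the other 5 held 46.8 to 56. TGFb-alone replicate 3 held 16.8, where the other 5 held 2.16 to 7.17. The drug difference of this gene kept its direction and its call under each of 22 alternatives, with log2 fold changes from -4.23 to -3.33.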

How the results depend on the processing

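The number of called genes stayed within 1.5 times of 6592 under 21 of 22 alternatives (5992 to 7022), and no gene called in both fits changed direction in any of them. Against a fold of 1.2 the calls were 2520, with 1563 higher and 957 lower. Under that test, chosen for gene groups after the data were seen, the TGFb-raised genes of at least 2-fold held 73 higher and 61 lower with Sora. The TGFb-lowered genes held 95 higher and 43 lower. Culture-raised genes held 678 higher and 68 lower, and culture-lowered genes 179 higher and 253 lower. Genes outside the coding table were then 57 higher and 46 lower. Without scaling factors 42.4% of calls were higher with Sora, against 51.8%. The median of culture-lowered genes was -0.149 without scaling factors and -0.129 with upper-quartile factors. Leaving out 1 library gave 5998 (without Sora replicate 5) to 6563 calls. The 4 genes kept their call and direction in each setting. The number of detected genes was 54.7 higher with Sora on average, -13.2 without Pirf replicate 4 and up to 149.6 in other such settings.

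The 259 genes with a TGFb log2 fold change of -1 or below and no TGFb call depended most on single libraries. Their 70 calls lower with Sora became 38 without Pirf replicate 5, 39 without Sora replicate 3, 44 without Sora replicate 5 or 6, 46 without Sora replicate 4 or Pirf replicate 6, and 148 without Sora replicate 2. They were 165 with limma-voom, 36 against a fold of 1.2, 106 under the replicate block and 101 in the fit of 12 libraries alone. In that last fit 1 gene was higher with Sora, against 3 in the main fit.

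With the replicate number as a block, 6699 genes were called. Correlations of same-numbered Sora and Pirf libraries, as deviations from group means, ran from -0.286 to 0.148. Of the 6 Sora libraries, 1 matched its own number best. Such correlations cannot decide whether same-numbered samples share an animal or a batch.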

Other observations

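The 259 genes just named varied widely between libraries of one group. In mean log2 level relative to untreated slices at 72, time-0 replicates 1 and 3 stood at -1.92 and -1.96, and replicates 2 and 4 at 1.33 and 0.89. Among Sora libraries replicate 3 stood at -2.27 and replicate 2 at 0.49, with the other 4 from -1.09 to -0.16. Pirf libraries ranged from -0.21 to 1.22, overlapping Sora through Sora replicates 1 and 2. TGFb-alone replicates 5 and 6 stood at -0.05 and -0.67, and the other 4 from -2.34 to -1.71. The TGFb-alone and untreated levels at 72 were used to choose these genes, so the low TGFb-alone level is no result. The median log2 fold change of these genes was -1.53 for Sora against Pirf. What these genes are was not analysed here.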
